A study of Sus scrofa with 6 samples.

Results

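Counts of 10 genes of blood vessel growth and of the vessel wall were read in RNA-seq libraries of Sertoli cells from neonatal pigs (NPSC), out of 25149 genes with an Ensembl identifier in the deposited counts. They were looked up by symbol or identifier, and all 10 were found: the ligands VEGFA and VEGFC, the VEGF receptors KDR and FLT1 and the co-receptor NRP1, the angiopoietin receptor TEK and its ligand ANGPT2, and the endothelial genes PECAM1, EGFL7 and CD93. The set was selected on values of the comparison of complement NPSC with baseline NPSC, namely the fold changes of these genes, so differences between the conditions in these 10 genes are given as descriptions, with no test. All 10 had enough counts to be fitted.

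VEGFA is a secreted growth factor that acts on endothelial cells, the cells that line blood vessels. It binds the receptor tyrosine kinases KDR, which carries most of the growth and permeability signal, and FLT1, which binds the ligand tightly and signals weakly, and NRP1 holds the ligand for KDR. VEGFC acts mainly through the related receptor FLT4 on lymphatic endothelium, while the angiopoietin system with its receptor TEK controls how stable a vessel is. In the testis, blood vessels run between the seminiferous tubules and not inside them. Sertoli and Leydig cells are known sources of VEGFA there, and the receptors belong mostly to the endothelium.

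NPSC were isolated by enzymatic digestion of testes from wild type neonatal Duroc-Landrace pigs a few days old, taken from 3 litters, and cultured in DMEM with fetal bovine serum. Part of the medium was then replaced for 90 min, either by DMEM (baseline NPSC, labelled as media, 3 plates) or by pooled human AB serum in which complement was preserved (complement NPSC, human serum and media in equal parts, 3 plates). Every group therefore held fetal bovine serum, and complement and the other constituents of human serum cannot be told apart, because the baseline plates received no human serum. Markers of endothelial, Leydig and peritubular myoid cells were present in every library beside those of Sertoli cells, so the isolate was not a pure population. The sources used here do not say whether each plate came from its own litter, so p-values measure the spread between these 6 libraries only, which may be technical.

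Libraries held 3641518 to 8371923 counts on genes, and every complement NPSC library held fewer than any baseline NPSC library. Counts on 48 olfactory receptor genes, which these cells should not use, came to 1.18 to 2.15 CPM (counts scaled to library size) per kb of exon in baseline NPSC. They came to 4.01, 4.43 and 1.51 in complement replicates 1, 2 and 3, so complement replicates 1 and 2 stood apart from the other libraries. The counts a gene would hold at this density, given its exon length, are called its expected background. By edgeR's quasi-likelihood test, 18 of 17512 tested genes passed the thresholds (adjusted p below 0.05, log2 fold change above 1 or below −1), 16 of them higher in complement NPSC (21 of 21 with upper-quartile normalization), and the median log2 fold change over all tested genes was 0.02. Sertoli cell markers, with clusterin (CLU) the highest, summed to 1950, 2886 and 2297 CPM per kb in baseline NPSC, against 1310, 1476 and 1495 in complement NPSC. CLU made up 1519 CPM per kb of the baseline mean of 2377. The 14 tested Sertoli markers had a median log2 fold change of −0.44, with 6 positive, and 2 positive with the olfactory receptor density as a covariate. Groups did not overlap in 6 of the 14 with complement NPSC lower and in 1 with it higher. Over all tested genes these shares were 8.14% and 8.95%. In 6 of the 14, most of them with positive log2 fold changes, the expected background exceeded 20% of the counts.

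Levels of different genes are compared as CPM per kb of exon, since longer transcripts give more fragments. In baseline NPSC, PECAM1, an adhesion molecule of endothelial cell junctions, was highest of the 10 at 46.1 ± 12.2 CPM per kb (SD, n = 3). It was followed by NRP1 at 42.6 ± 8.78, EGFL7 at 42.5 ± 16.8, KDR at 38.7 ± 6.61 and CD93 at 31.4 ± 15.4 CPM per kb. VEGFA and FLT1 stood next to each other at 24.5 ± 4.01 and 24.0 ± 3.80 CPM per kb. None of these neighbours in the order could be separated, since their ranges over the 3 baseline libraries overlapped. VEGFC came next at 18.8 ± 0.89 CPM per kb. FLT1 was above it in 3 of 3 libraries with no overlap, but only just, since in replicate 2 VEGFC stood at 19.6 and FLT1 at 19.7 CPM per kb. The last steps, VEGFC above ANGPT2 (10.4 ± 2.28 CPM per kb) and ANGPT2 above TEK (4.44 ± 1.16), held in 3 of 3 libraries with no overlap.

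The receptors and endothelial genes were thus present at levels well inside the range of the cells' other transcripts. Among the 17512 tested genes, the baseline level of PECAM1 per kb lay at percentile 89.9, NRP1 at 88.7, KDR at 87.2 and VEGFA at 77.4. TEK lay at percentile 24.3. The expected background came to 45.7% of the TEK counts and 21.6% of the ANGPT2 counts over the 6 libraries, against 4.68% to 11.0% for the other 8 genes. By this estimate, values of TEK, and to a lesser degree of ANGPT2, may rest partly on background. The estimate was too high for some genes, and TEK itself held 56 counts in complement replicate 2 against 72.0 expected.

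**Figure D1:**
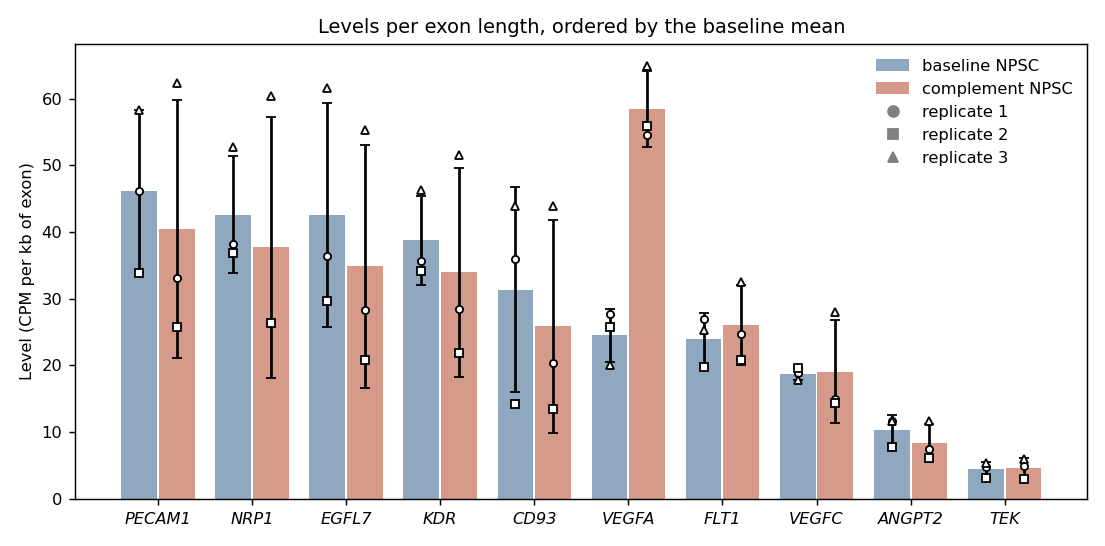
Level of each of the 10 genes in CPM per kb of exon, for the 3 baseline NPSC and 3 complement NPSC libraries, with bars for group means, error bars for the SD (n = 3) and a point for each library. VEGFA stood sixth of 10 in baseline NPSC (24.5 CPM per kb) and highest of 10 in complement NPSC (58.4 CPM per kb), while TEK was lowest in both.

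VEGFA (ENSSSCG00000001695, chromosome 7, 44459903 to 44474467, plus strand, 1875 bp of exon, in the unnamed build of the files) stood at 52.0, 48.3 and 37.6 CPM in baseline replicates 1, 2 and 3. It stood at 102, 105 and 122 CPM in complement replicates 1, 2 and 3. Every complement NPSC library was higher than every baseline NPSC library, and the lowest complement value was 1.96 times the highest baseline value. Group means were 46.0 ± 7.52 and 110 ± 10.7 CPM (SD, n = 3 each), a fitted log2 fold change of 1.25 (SE 0.20), or 2.39-fold. Within a group the highest library was 1.39 times the lowest in baseline NPSC and 1.19 times in complement NPSC. The underlying counts were 285 to 359 in baseline NPSC and 439 to 701 in complement NPSC, of which the expected background was 5.48%.

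Of the 10 genes, VEGFA alone lay past the thresholds used for all genes, in edgeR and with DESeq2, beside 0.103% of all tested genes in edgeR. This is part of the description and no test of VEGFA, because the same contrast chose the genes, and nothing is read from the count. By log2 fold change VEGFA ranked 494 of 17512 from the highest. Over 17 settings of libraries and model, VEGFA lay past the thresholds in 14. It lay short of them without baseline replicate 2 (log2 fold change 1.27) and without baseline replicate 3 (1.11). The same held without complement replicates 1 and 2 (1.38), which leaves 1 complement library. Groups failed to overlap with complement NPSC higher in 1 of the 10 genes, against 8.95% of all tested genes. They failed to overlap with complement NPSC lower in 0 of the 10, against 8.14%.

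**Figure D2:**
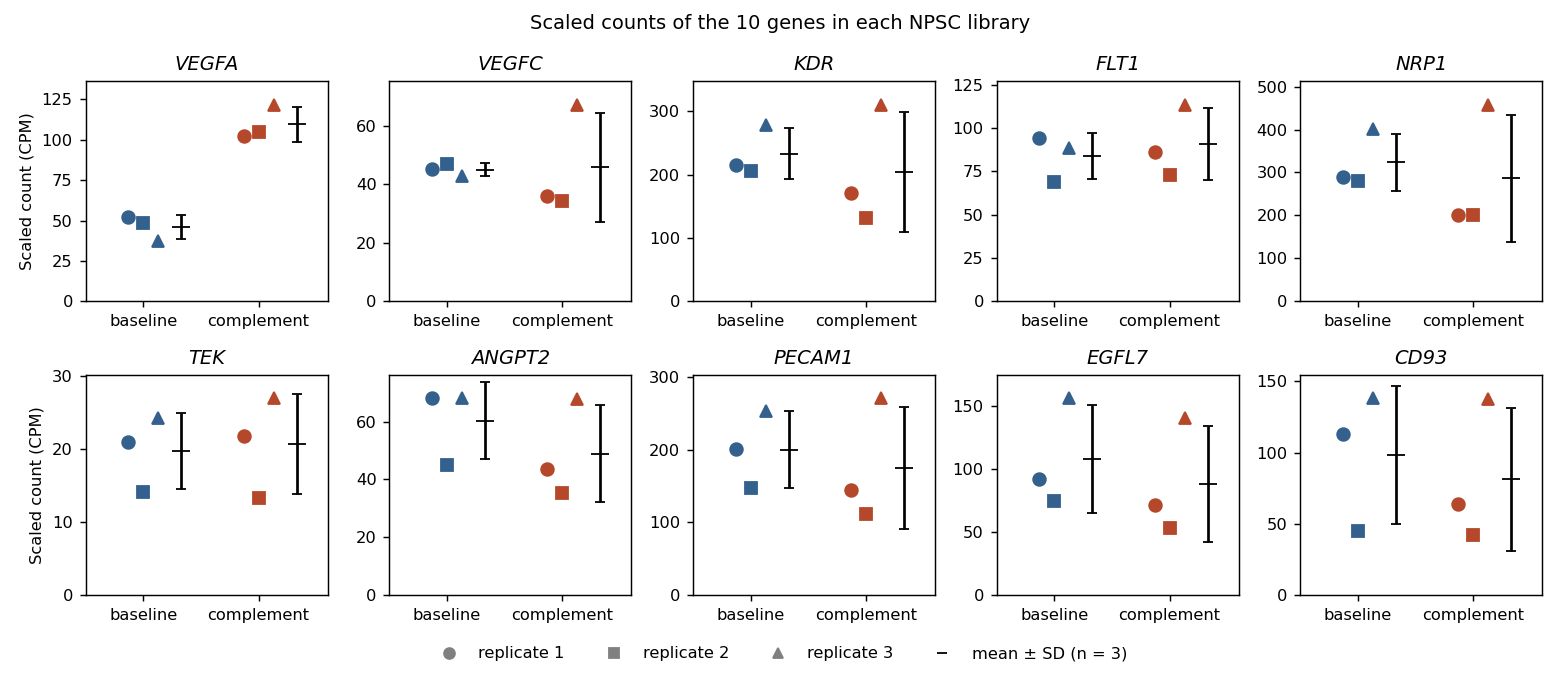
CPM of each of the 10 genes in the 6 libraries, 1 panel per gene, with a symbol for each replicate and the mean ± SD (n = 3) beside them. The complement points of VEGFA (102 to 122 CPM) all lie above its baseline points (37.6 to 52.0 CPM), while in the other 9 panels the groups overlap and complement replicate 3 lies above complement replicates 1 and 2.

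VEGFC, the ligand of lymphatic endothelium (ENSSSCG00000015770, chromosome 15, 44742346 to 44773322, minus strand), stood at 45.4, 46.9 and 42.7 CPM in the baseline libraries. In complement NPSC it stood at 35.8 and 34.4 CPM in replicates 1 and 2 and at 67.2 CPM in replicate 3, on either side of the narrow baseline range. The means were 45.0 ± 2.13 and 45.8 ± 18.6 CPM (SD, n = 3 each), with a fitted log2 fold change of 0.03 (SE 0.24). The complement mean of VEGFC therefore described none of its 3 libraries. Per kb and within a library, VEGFA exceeded VEGFC by 1.13 to 1.47 times in baseline NPSC and by 2.32 to 3.90 times in complement NPSC.

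KDR, the main signalling receptor of VEGFA (ENSSSCG00000008844, chromosome 8, 43919343 to 43966974, minus strand), stood at 215, 206 and 279 CPM in baseline NPSC. Complement replicates 1, 2 and 3 stood at 171, 131 and 311 CPM. Replicates 1 and 2 were below every baseline library and replicate 3 was above every one, so the groups overlapped. Means were 233 ± 39.8 and 204 ± 94.1 CPM (SD, n = 3 each), and the fitted log2 fold change was −0.19 (SE 0.29).

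FLT1, the tight-binding receptor (ENSSSCG00000009320, chromosome 11, 5316370 to 5455380, minus strand), varied least of the 10 over the 6 libraries, with the highest library 1.65 times the lowest. Its baseline values were 94.2, 68.9 and 88.4 CPM. Its complement values were 86.4, 72.8 and 114 CPM, and only replicate 3 lay outside the baseline range. The fitted log2 fold change was 0.12 (SE 0.21). Per kb within a library, the FLT1 to KDR ratio was 0.55 to 0.76 in baseline NPSC and 0.63 to 0.95 in complement NPSC, so these groups overlapped as well.

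NRP1, the co-receptor (ENSSSCG00000011102, chromosome 10, 61651758 to 61800688, minus strand), had the highest CPM of the 10, with 290.1, 280.2 and 400.3 CPM in the baseline libraries. In complement NPSC, replicates 1 and 2 stood at 201 CPM each and replicate 3 at 458 CPM. As for KDR, complement replicates 1 and 2 were the lowest of the 6 libraries and complement replicate 3 the highest, with a fitted log2 fold change of −0.17 (SE 0.32). The NRP1 to KDR ratio per kb moved little, from 1.07 to 1.14 in baseline NPSC and from 0.93 to 1.21 in complement NPSC.

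Because the ligand and the receptors differed, the amount of VEGFA relative to its receptors was worked out within each library after the values had been seen. VEGFA to KDR, per kb, was 0.78, 0.75 and 0.43 in baseline NPSC, against 1.92, 2.56 and 1.26 in complement NPSC. VEGFA to FLT1 was 1.03, 1.31 and 0.79 in baseline NPSC, against 2.20, 2.68 and 2.00 in complement NPSC. Neither ratio overlapped between the groups, and since both use the VEGFA values they are the same observation in another form. They do not depend on the normalization between libraries.

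ANGPT2, a ligand that endothelial cells release (ENSSSCG00000015753, chromosome 15, 42685042 to 42787678, minus strand), stood at 68.0, 45.0 and 68.0 CPM in baseline NPSC. It stood at 43.6, 35.3 and 67.7 CPM in complement NPSC, with a fitted log2 fold change of −0.30 (SE 0.25), and the groups overlapped. With the expected background subtracted the log2 fold change was −0.52. Its span overlaps those of MCPH1 on the same strand (76 to 167 counts) and of an unnamed gene on the opposite strand (11 to 38 counts), and the strand setting of the counting is not given in the sources used here, so some of its reads may belong to these.

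TEK, the angiopoietin receptor (ENSSSCG00000005122, chromosome 1, 218224162 to 218500245, minus strand), stood at 21.0, 14.1 and 24.2 CPM in baseline NPSC. In complement NPSC it stood at 21.8, 13.4 and 26.9 CPM, a fitted log2 fold change of 0.07 (SE 0.29). The share of its counts that the expected background took was 35.2% in baseline NPSC and 60.0% in complement NPSC, and with this background subtracted the log2 fold change was −0.44. In complement replicate 2, TEK held 56 counts, fewer than the 72.0 of its expected background, so its level there cannot be told apart from background.

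PECAM1 (ENSSSCG00000017277, chromosome 12, 14660875 to 14717153, plus strand) stood at 200.2, 147 and 253 CPM in baseline NPSC. In complement NPSC it stood at 144, 112 and 270.3 CPM, with a fitted log2 fold change of −0.19 (SE 0.30). Replicate 2 was the lowest library of each group, and complement replicate 3 was the highest of all 6.

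EGFL7, a secreted protein of endothelial cells (ENSSSCG00000005828, chromosome 1, 313727477 to 313737435, plus strand), stood at 92.3, 75.1 and 156 CPM in baseline NPSC and at 71.7, 53.0 and 140.3 CPM in complement NPSC. The fitted log2 fold change was −0.28 (SE 0.33). An opposite-strand gene inside the same span held 54 to 118 counts and a 73 bp gene on the same strand held 1 to 12, against 222 to 1185 for EGFL7.

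CD93, a lectin-like receptor of the endothelial surface (ENSSSCG00000007116, chromosome 17, 34381626 to 34384902, plus strand), was the most variable within a condition. Its baseline values were 113, 44.7 and 138 CPM, a 3.09-fold range among plates given the same medium. Its complement values were 64.1, 42.2 and 138 CPM, a 3.27-fold range. The fitted log2 fold change of −0.27 (SE 0.39) was smaller than its own standard error.

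Across the 10 genes, 4 fitted log2 fold changes were positive and the median was −0.18, beside 0.02 over all tested genes. Each of the 9 genes other than VEGFA took both signs over the 17 settings of libraries and model, but not equally often. ANGPT2 was negative in 16 of the 17, all but the fit without complement replicates 1 and 2. FLT1 was positive in 15, and turned negative only when a library was left out. Without complement replicate 3 all 9 were lower in complement NPSC, from −0.10 for FLT1 to −0.92 for CD93 in log2 fold change. Without complement replicates 1 and 2, the pair with the high olfactory receptor density, only complement replicate 3 was left, and the 9 log2 fold changes, 0.14 to 0.55, restate that this library was high. With all 6 libraries, 3 of the 9 were positive in the fit described here, 8 of 9 with the olfactory receptor density as a covariate and 6 of 9 with a replicate block and that covariate. Over the 17 settings, in which 9 to 1063 of all tested genes passed the thresholds, VEGFA was positive in all 17, from 1.11 to 1.59.

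**Figure D3:**
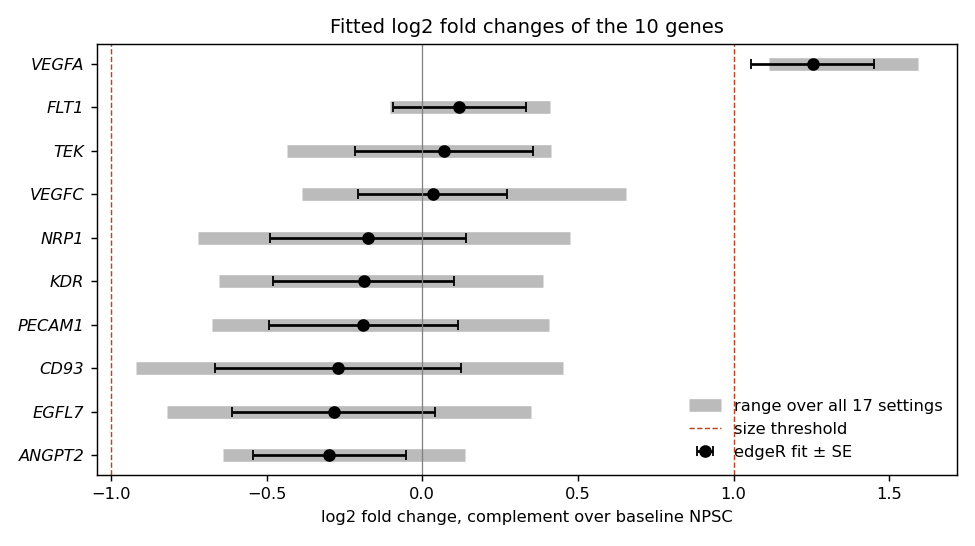
Fitted log2 fold change of complement NPSC over baseline NPSC for each of the 10 genes, with its standard error (whiskers) and the range over all 17 settings (grey bars). VEGFA stays between 1.11 and 1.59 throughout, while the values of the other 9 genes spread over both sides of 0, as for KDR from −0.65 to 0.39.

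The 8 receptor, angiopoietin and endothelial genes shared an order over the libraries. Within baseline NPSC, replicate 2 was the lowest for all 8, and within complement NPSC, replicate 3 was the highest for all 8. Over all tested genes, replicate 2 was the lowest baseline library for 25.8% and replicate 3 the highest complement library for 40.8%. Of 17 tested endothelial markers outside the 10 genes, 16 were lowest in baseline replicate 2 within their group and 11 were highest in complement replicate 3. The order was not particular to endothelial genes: pericyte markers summed to 161, 118 and 152 CPM per kb in baseline NPSC, against 119, 101 and 184 in complement NPSC. Peritubular myoid markers shared only its complement part. They summed to 1573, 1588 and 2881 CPM per kb in complement NPSC, but to 1916, 2114 and 2899 in baseline NPSC, where replicate 1 was lowest. These counts were made after the values had been seen.

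In level, 18 endothelial markers found in the files, none of them among the 10 genes, summed to 654, 482 and 738 CPM per kb in baseline NPSC, against 432, 348 and 811 in complement NPSC. The 8 genes summed to 236, 180 and 305 CPM per kb in baseline NPSC, against 174, 138 and 324 in complement NPSC. As a share of the marker sum this was 36.0%, 37.3% and 41.4% in baseline NPSC, against 40.2%, 39.7% and 39.9% in complement NPSC. The share in complement NPSC lay inside that in baseline NPSC. Without ENG in the marker sum it was 75.1% to 98.9% in baseline NPSC and 67.3% to 83.1% in complement NPSC, which overlap. The groups overlapped in the marker sum, and 11 of 17 tested markers had positive log2 fold changes while ENG had −0.49, so no general decrease of the markers is read from the sum. A difference in the number of endothelial cells and one in RNA per endothelial cell cannot be told apart in bulk libraries. Of the markers, ENG, a co-receptor for TGF-beta, held the largest part of the sum (346 ± 80.3 CPM per kb in baseline NPSC, 246 ± 153 in complement NPSC, SD, n = 3 each), and S1PR1 was at 0 counts.

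Single genes were set against the same marker sum. KDR was 5.45% to 7.10% of the sum in baseline NPSC and 6.28% to 6.57% in complement NPSC. PECAM1 was 7.05% to 7.90% in baseline NPSC and 7.41% to 7.69% in complement NPSC. VEGFA was 4.24%, 5.35% and 2.71% of the sum in baseline NPSC, against 12.6%, 16.1% and 8.01% in complement NPSC, so its groups did not overlap, and they did not overlap without ENG in the sum either. TEK was also without overlap, at 0.656% to 0.737% against 0.745% to 1.13% of the sum of all markers, but overlapped without ENG. ANGPT2 overlapped against all markers, but without ENG it was 3.64% to 3.78% in baseline NPSC and 2.91% to 2.99% in complement NPSC.

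**Figure D4:**
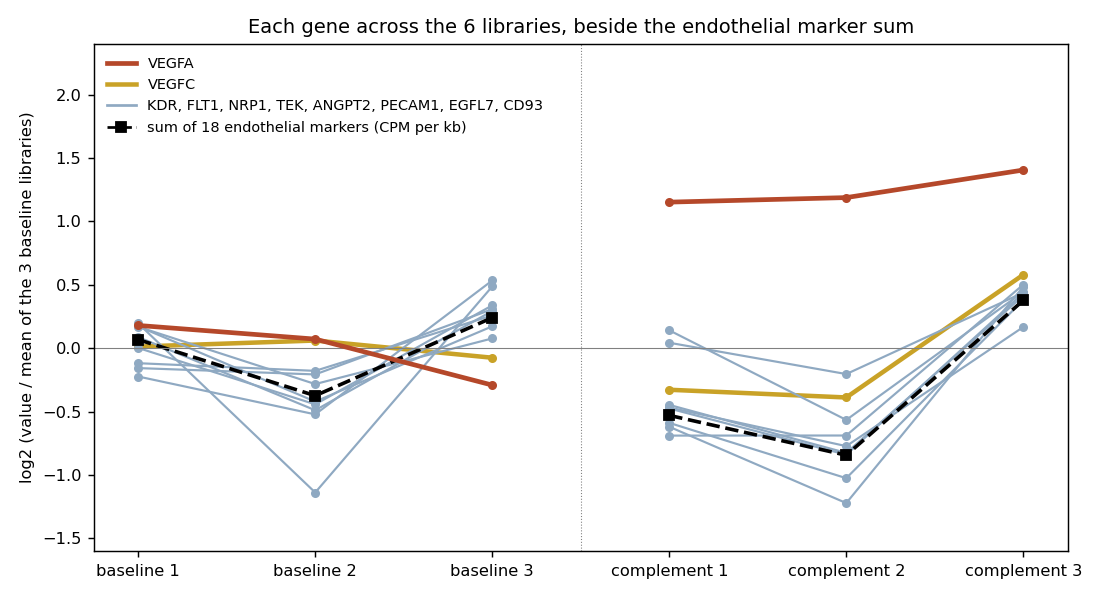
Each gene in each of the 6 libraries as the log2 of its value over its mean in the 3 baseline libraries, with the sum of 18 endothelial markers as a dashed black line. The 8 receptor, angiopoietin and endothelial genes lie lowest in replicate 2 of baseline NPSC and highest in replicate 3 of complement NPSC within their groups, like the marker sum (482 and 811 CPM per kb), while VEGFA lies above all others in the 3 complement NPSC libraries.

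By Pearson's r of log2 CPM over the 6 libraries, genes very like KDR among 8554 genes with a symbol and a mean of at least 10 CPM included RIPOR2 (0.996) and TCF4 (0.995). Of the 10 genes, PECAM1 (0.97), NRP1 (0.96) and EGFL7 (0.96) were nearest to KDR, and FLT1 (0.70) and VEGFA (−0.29) farthest. The genes most like VEGFA were PTGS2 (0.993), FBF1 (0.990), MLKL (0.990), NR4A2 (0.988) and IL1A (0.985). PTGS2, which encodes the inducible cyclooxygenase, stood at 50.0, 51.4 and 24.8 CPM in baseline NPSC and at 291, 442 and 725 CPM in complement NPSC. The 6 points share the libraries and their normalization, so these values describe likeness only, and for VEGFA they include the step between the 2 conditions.

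The genes around these 10 were read from 8 lists written from general knowledge, which hold none of the 10. Of 96 list genes in the files, 90 were tested, and 0 passed the thresholds by edgeR's quasi-likelihood test or by the DESeq2 Wald test. In edgeR 13 had an unadjusted p under 0.05, and the lowest adjusted p was 0.261. Over all tested genes the unadjusted p was under 0.05 in 2658 of 17512. Groups did not overlap in 9 of the 90 genes with complement NPSC higher (8.95% of all tested genes) and in 3 of the 90 with complement NPSC lower (8.14% of all tested genes), and the median log2 fold change was 0.04, near that of all tested genes.

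Other VEGF ligands, receptors and co-receptors had a median log2 fold change of 0.03 over 10 tested genes, 7 of them positive. The number positive was 5 with DESeq2 size factors and 4, with a median of −0.02, after subtraction of the expected background. Glypican GPC1, which binds growth factors at the cell surface, was the highest of them, at 212 ± 13.4 CPM per kb in baseline NPSC and 153 ± 43.6 in complement NPSC (SD, n = 3 each), and had a log2 fold change of −0.47 (SE 0.28, edgeR adjusted p = 0.401). The semaphorin receptors PLXNA1 and PLXND1 had log2 fold changes of −0.25 and 0.01. FLT4, the receptor of VEGFC, stood at 11.5 ± 1.98 and 14.0 ± 2.69 CPM per kb.

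Angiopoietin and TIE genes had positive log2 fold changes in 8 of 8, with a median of 0.34. In 5 of the 8, however, the expected background exceeded 20% of the counts, as for ANGPT1 with 57.5%, and 7 of 8 were positive after its subtraction. Its part in the list's direction was not tested. The 3 highest, ANGPTL4, ANGPTL2 and TIE1, had log2 fold changes of 0.04, 0.14 and 0.13.

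Regulators of VEGFA transcription and of its mRNA had negative log2 fold changes in 10 of 10, with a median of −0.34, but in 9 of 10 the sign was positive once the olfactory receptor density entered the fit as a covariate. HIF1A, the oxygen-regulated transcription factor that induces VEGFA, stood at 139 ± 15.8 CPM per kb in baseline NPSC and 126 ± 54.0 in complement NPSC, and its log2 fold change was −0.15 (SE 0.29). EPAS1, its endothelial relative, had a log2 fold change of −0.21 (SE 0.42). ZFP36L1, which promotes decay of VEGFA mRNA, had −0.04 (SE 0.28).

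Hypoxia-induced genes other than VEGFA had a median log2 fold change of −0.09 over 20 tested genes, 8 of them positive. The median was 0.09 with 13 positive when the olfactory receptor density was a covariate, and 0.02 with 10 positive under upper-quartile normalization. The glycolytic enzyme ENO1 had a log2 fold change of −0.51 (SE 0.29), NDRG1 0.04 (SE 0.27) and the collagen cross-linking enzyme LOX −0.48 (SE 0.25). Groups did not overlap in 2 of the 20 genes with complement NPSC higher (HK2 and ANKRD37) and in 1 of the 20 with it lower (VLDLR), against 8.95% and 8.14% of all tested genes, and none of the 3 passed the test. ANKRD37 was separated only by 3.78 CPM in complement replicate 1 over 3.77 CPM in baseline replicate 1, and 46.7% of its counts were expected background. These 3 were named after their values were seen.

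Endothelial markers had a median log2 fold change of 0.13 over 17 tested genes, 11 positive, and groups overlapped in 17 of 17. The 3 highest, ENG, ESAM and CLEC14A, had log2 fold changes of −0.49 (SE 0.39), −0.17 (SE 0.32) and −0.27 (SE 0.36), so the sum above and the median over markers differ in sign. Without complement replicate 3, ENG and CLEC14A passed the thresholds, with log2 fold changes of −1.15 and −1.05 and edgeR adjusted p of 0.0382 and 0.0389. In that fit 1063 genes passed, against 18 with all libraries, and 61 of them were lower.

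Tip cell and Notch genes, which VEGF signalling is known to raise in sprouting endothelium, had a median log2 fold change of −0.03 over 8 tested genes, 4 positive. With the olfactory receptor density as a covariate the median was 0.33 and 7 of 8 were positive. NID2, ESM1 and JAG1, the 3 highest, had log2 fold changes of −0.33, 0.17 and −0.27. DLL4, the Notch ligand of tip cells, had 0.53 (SE 0.36), with its groups overlapping, and was named for its role after the values were seen.

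Inhibitors and feedback genes of angiogenesis had a median log2 fold change of 0.04 over 9 tested genes, 5 positive, and 8 were positive with the olfactory receptor density as a covariate. SPRY2, which dampens receptor tyrosine kinase signalling, stood at 83.0, 80.5 and 68.1 CPM per kb in baseline NPSC, against 115, 113 and 178 in complement NPSC. The fitted difference of 0.81 on the log2 scale (SE 0.22) had an edgeR adjusted p of 0.261, and with the expected background subtracted it passed, at 1.05 with an edgeR adjusted p of 0.0430. SPRY2 also passed with the olfactory receptor density as a covariate, at 1.06, and with that covariate and a replicate block, at 1.32 (edgeR adjusted p of 0.0371 and 0.00335). ADAMTS9, a secreted protease, passed in the same 2 fits, at 1.02 and 1.03 (edgeR adjusted p of 0.0204 and 0.0143). VASH2, which stands in this list beside VASH1 but is itself known to promote vessel growth, was lower in complement NPSC without overlap, from 55.7 ± 7.46 to 35.9 ± 2.54 CPM per kb (SD, n = 3 each), a log2 fold change of −0.63 (SE 0.19, edgeR adjusted p = 0.264). PTPN1, a phosphatase, had −0.19 (SE 0.21).

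Angiogenic growth factors outside the VEGF family had a median log2 fold change of 0.30 over 12 tested genes, 8 positive, and in 7 of the 12 the expected background exceeded 20% of the counts. After its subtraction the median was 0.14, with 5 positive. CCN1 and CCN2, matrix-associated proteins, were the highest. CCN1 stood at 708, 682 and 478 CPM per kb in baseline NPSC, against 738, 743 and 1261 in complement NPSC, and its log2 fold change was 0.55 (SE 0.36, edgeR adjusted p = 0.428). With a replicate block and the olfactory receptor density in the fit CCN1 passed, at 1.29 with an edgeR adjusted p of 0.0155. AREG, an EGF receptor ligand, was among the 1063 genes that passed without complement replicate 3, at 1.51 with an edgeR adjusted p of 0.0473, but its expected background exceeded its counts. CCN2 had a log2 fold change of 0.26 (SE 0.36) and the vasodilator ADM −0.43 (SE 0.24).

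**Figure D5:**
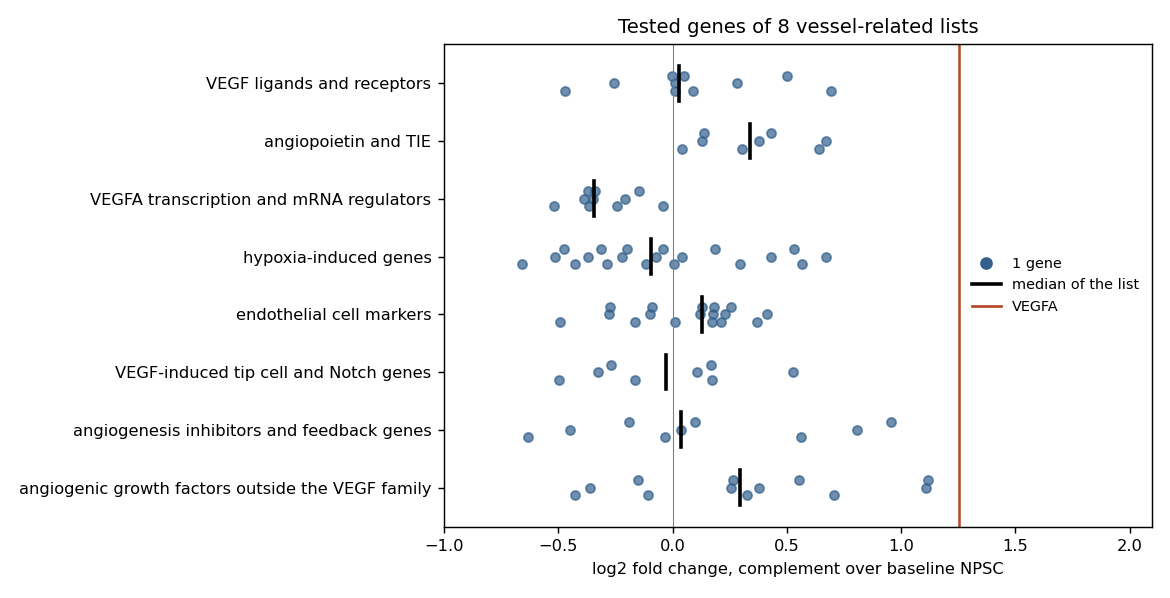
Fitted log2 fold changes of the tested genes in each of the 8 lists, complement NPSC over baseline NPSC, with each point a gene, a black line at the median of each list and a red line at VEGFA. No list gene passed the thresholds in the fit plotted, and list medians run from −0.34 (VEGFA regulators) to 0.34 (angiopoietin and TIE genes), against 1.25 for VEGFA.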

How the data were processed

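The values the authors deposited are raw read counts on genes in 6 libraries, not normalized, with coordinates and summed exon length. Per the submitters' processing notes, Trimmomatic 0.36, STAR 2.5.2b and featureCounts of Subread 1.5.2 were used; the genome build and strand setting are not given in the sources used here. Symbols were matched for 11804 of 25149 identifiers. The 10 genes and all gene lists were chosen with earlier results of these data known.

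Counts were filtered (filterByExpr), TMM-normalized and fitted with edgeR 4.0.16 in R 4.3.3 (glmQLFit, quasi-likelihood F-test, Benjamini-Hochberg adjustment over 17512 genes, thresholds 0.05 and 1). Alternatives were the Wald test of DESeq2 1.42.0, DESeq2 size factors, upper-quartile normalization, other filters, subtraction of the expected background, the olfactory receptor density as covariate, a replicate block and leaving libraries out. SE is the log2 fold change divided by the root of F. CPM uses the TMM-scaled library size. The pipeline was tested on simulated data. Counting error at 3641518 to 8371923 counts limits genes with few counts.

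The genes named were the 10, each list's genes past the thresholds and 3 highest per kb, and the 5 and 3 genes most like VEGFA and KDR, of which 1 is not reported here. FLT4, ANGPT1, DLL4, HK2, ANKRD37 and VLDLR, and ADAMTS9 and AREG, which passed only in alternatives, fall outside this rule and were named after their values were seen. Marker sums in CPM per kb, baseline and complement NPSC, were 144 ± 22.6 and 135 ± 43.6 for pericytes, 170 ± 43.6 and 139 ± 20.5 for macrophages, 1194 ± 122 and 836 ± 34.0 for Leydig cells, 2310 ± 520 and 2014 ± 751 for peritubular myoid cells and 133 ± 18.2 and 117 ± 13.7 for germ cells (SD, n = 3 each).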

Additional observations from a re-analysis of the deposited data

How the results depend on the processing

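The count of 18 genes past the thresholds became 53 with the DESeq2 Wald test, 31 with the expected background subtracted, 31 without a filter, 58 with the olfactory density covariate, and 9 to 1063 when 1 library was left out (9 without baseline replicate 2, 298 without baseline replicate 1, 1063 without complement replicate 3). Upper-quartile normalization shifted the median of all genes by 0.11. Deviations of same-numbered libraries from their group means had r over genes of 0.456, 0.0302 and 0.482 for numbers 1, 2 and 3. Differently numbered libraries had −0.50 to 0.28. Deviations cancel within each group, so these values depend on one another and cannot decide whether the numbers are pairs. No pairing is given in the sources used here, and the main fit took none. With a replicate block the count was 728 (690 higher), and 116 with block and covariate. List counts of 0 became 0 to 2 for endothelial markers with 1 library left out. For inhibitors they became 1 with subtraction, 2 with the covariate and 2 with block and covariate. For other growth factors they became 1 with block and covariate and 0 to 1 with 1 library left out. The cause was not tested.

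Log2 fold changes moved as follows. VEGFA was 1.54 with subtraction, 1.59 with block and covariate, and 1.26 with the block alone. VEGFC was 0.44 with the covariate, 0.65 with block and covariate, −0.39 to 0.18 with 1 library left out. KDR was 0.33 and NRP1 0.41 with the covariate, and NRP1 was −0.72 to 0.020 with 1 library left out. TEK was −0.44 with subtraction. Without complement replicates 1 and 2, which leaves 1 complement library assumed to vary like the baseline libraries, VEGFC was 0.55, KDR 0.39, FLT1 0.41, NRP1 0.47, ANGPT2 0.14 and PECAM1 0.41, and VEGFA was 1.38. Baseline VEGFC was 17.7 CPM per kb by library total and 17.3 with subtraction, and TEK 2.88 with subtraction.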
